A study of Mus musculus with 8 samples.

Results

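The genes described here encode the potassium, sodium and calcium channels of the cell membrane. They were taken by symbol, as every gene on the array whose symbol starts with Kcn, with Cacn, or with Scn followed by a number and the letter a or b, leaving out the antisense RNA Kcnq1ot1. The rule gave 118 of the 18193 genes tested, each measured by 1 probe set, the one with the highest mean over 8 arrays. Of the 118 genes, 31 encode voltage-gated potassium pores, 15 inward rectifiers, 12 tandem-pore (Kcnk) potassium channels, 8 calcium- or sodium-activated potassium channels and 17 potassium channel auxiliary subunits or other genes with a Kcn symbol. A further 9 encode calcium channel pores, 4 alpha2delta, 3 beta and 8 gamma subunits of calcium channels, 8 sodium channel pores and 3 sodium channel beta subunits. The rule also takes in Kcnmb4os1 and Kcnmb4os2, opposite-strand noncoding RNAs that encode no channel.

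RNA was measured in menin-null and wild-type mouse embryonic stem cells (mESCs) and in PILECs, the cultures derived from these cells by a protocol for pancreatic islet-like endocrine cells, with 2 arrays from independent cultures in each of 4 groups. Men1, which encodes the tumour suppressor menin, was knocked out in the menin-null line 3.2N. The wild-type cells were the line TC-1, and all cells had the 129S6/SvEvTac background. PILECs were grown by way of embryoid bodies plated in a supplemented serum-free medium, then expanded with a fibroblast growth factor and finally kept with nicotinamide, whereas mESCs were kept with LIF on feeder cells and then freed of the feeders. With a single line for each genotype, an effect of menin loss and a difference between the lines cannot be told apart, and the tests compare differences only with the spread between 2 cultures. Values are log2 signals, a difference of 1 is a 2-fold change, and a level of 7 is a limit set here above which a gene is called expressed. Array signals do not rank RNA amounts between different probe sets, and no background level was measured, so a fold against a group below 7 is approximate.

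Voltage-gated sodium channels carry the upstroke of the action potential, voltage-gated calcium channels let in the calcium that triggers secretion and transcription, and potassium channels set the resting potential and end each spike. In pancreatic beta cells, closure of the ATP-sensitive potassium channel depolarises the membrane, calcium channels open and insulin is released. Neurons use the same families to fire and shape their action potentials. Auxiliary subunits do not form the pore but set how many channels reach the membrane and how they open and close.

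Men1 fell in menin-null cells of both types, with signals of 7.95 and 8.02 in menin-null PILECs against 10.06 and 9.92 in wild-type PILECs, and of 7.77 and 7.82 in menin-null mESCs against 9.90 and 9.97 in wild-type mESCs (limma adjusted p = 7.38e-05 in PILECs and 7.07e-05 in mESCs). Across genes, the arrays of a pair correlated between 0.9926 and 0.9974, and the menin-null mESC pair was the least alike, with an SD of the difference between its arrays of 0.303 over the 118 channel genes, against 0.198 for the wild-type mESC pair. The labelled cell type was checked against marker lists. The mean signal of 16 islet endocrine markers was 6.63 on both menin-null PILEC arrays and 6.63 to 6.65 on the wild-type PILEC arrays, against 6.03 to 6.18 in menin-null mESCs and 6.03 to 6.09 in wild-type mESCs, and 9 of the 16 rose and 1 fell with differentiation in menin-null cells, and 7 rose and 3 fell in wild-type cells. Of the 16, 7 had a mean of at least 7 in menin-null PILECs and 8 in wild-type PILECs, against 4 in menin-null mESCs and 3 in wild-type mESCs. Sst, Nkx2-2 and Chga rose in both genotypes and were above 7 in PILECs. Neurod1 (-0.44), Ppy (-0.44) and G6pc2 (-0.38) fell in wild-type cells, and Pdx1 (-0.52) fell in menin-null cells. The mean of Neurod1 was 8.68 in menin-null and 8.95 in wild-type PILECs, against 8.84 in menin-null and 9.4 in wild-type mESCs. The mean of Ins2 was 7.37 in menin-null and 7.23 in wild-type PILECs with no call. Gcg, Iapp, Pdx1, Slc2a2 and G6pc2 were below 7 in every group. The mean of 12 neuron markers was 11.84 to 12.03 in menin-null PILECs and 11.81 to 11.87 in wild-type PILECs, against 7.70 to 7.91 in menin-null mESCs and 7.65 to 7.75 in wild-type mESCs. PILEC is used here as the name the labels give to the differentiated cultures.

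Most channel genes stayed below the level of 7 in every group. Of the 118, 45 had a mean of at least 7 in menin-null PILECs, 41 in wild-type PILECs, 26 in menin-null mESCs and 26 in wild-type mESCs. That is 38.1%, 34.7%, 22% and 22% of them, while 59.2%, 59.1%, 58.3% and 58.5% of all genes were at that level in the same groups. The means of 62 genes were below 7 in every group and 56 reached it in at least 1, among them 11 of the 31 voltage-gated potassium pores and 3 of the 15 inward rectifiers. Inward rectifiers hold the membrane near its resting potential. Bright signals of at least 9 were seen for 14 channel genes in menin-null PILECs and 13 in wild-type PILECs, against 3 in menin-null mESCs and 2 in wild-type mESCs.

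Differentiation was the comparison in which channel genes moved most. In menin-null cells 48 channel genes rose in PILECs relative to mESCs and 19 fell, where 28.9% of all genes rose and 36.1% fell. In wild-type cells 48 rose and 21 fell, where 27.8% of all genes rose and 35.3% fell. The channel genes therefore rose in a share of 40.7% in each genotype, and fell in 16.1% in menin-null and 17.8% in wild-type cells. Their median difference was 0.20 in menin-null and 0.10 in wild-type cells, against -0.073 and -0.076 over all genes. The same 42 genes rose in both genotypes and the same 16 fell in both, 20 were called in 1 genotype only, and 0 were called in opposite directions. The study's threshold asks for a 2-fold difference and an unadjusted p under 0.005. By it, 32 rose and 6 fell in menin-null cells (13.5% and 18.1% of all genes), and 23 rose and 6 fell in wild-type cells (13.4% and 17% of all genes). In wild-type cells 11 fell without wild-type PILEC replicate 2 or without wild-type mESC replicate 2, and 13 without wild-type PILEC replicate 1. Markers of several cell types moved with this comparison. The 12 neuron markers are given above (11 rose in menin-null and 12 in wild-type cells). All 6 fibroblast markers rose in both genotypes, with a list mean of 11.13 to 11.56 in menin-null PILECs and 11.55 to 11.71 in wild-type PILECs, against 5.94 to 6.24 in menin-null mESCs and 6.06 to 6.35 in wild-type mESCs. Of 12 striated muscle markers 8 rose and 3 fell in menin-null cells, and 9 rose and 2 fell in wild-type cells. Of 8 glial markers 6 rose in menin-null and 5 in wild-type cells, and all 8 pluripotency markers fell in both. In bulk RNA, fewer cells of a type and less RNA per cell cannot be told apart, and the part of cell composition in these differences was not tested.

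**Figure D1:**
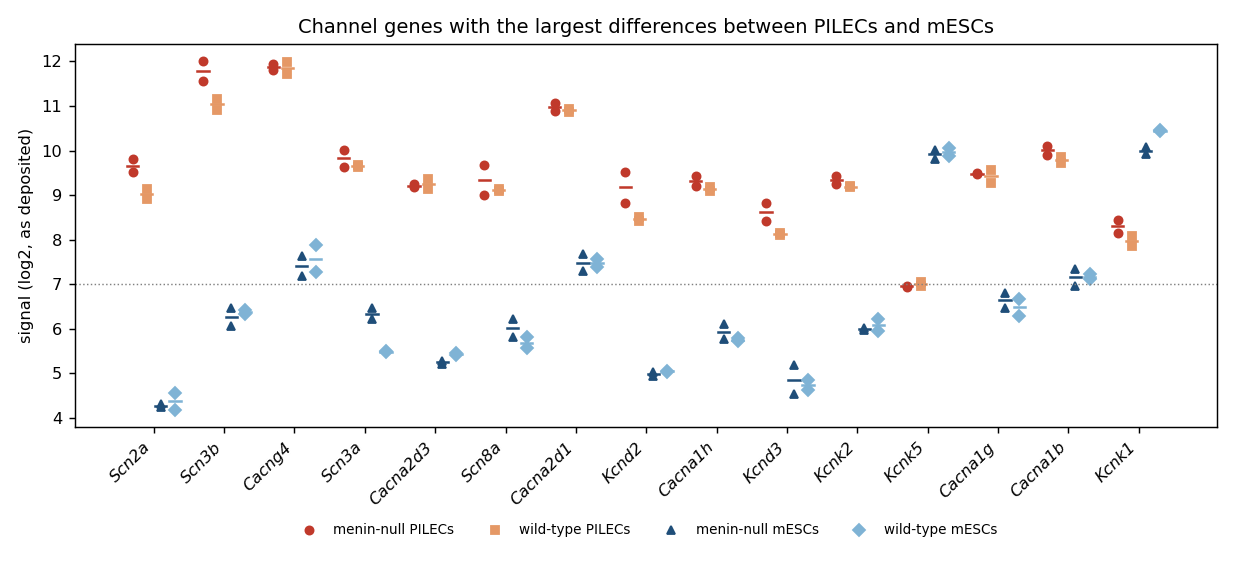
Log2 signal of the 15 channel genes with the largest differences between wild-type PILECs and wild-type mESCs, 1 point per array, with a short line at each group mean (n = 2) and a dotted line at the level of 7. For the 13 genes that rose every PILEC point lies above every mESC point, and for Kcnk5 and Kcnk1 every PILEC point lies below.

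The sodium channels held the genes with the largest differences. Scn2a, the pore of a neuronal sodium channel, had signals of 9.51 and 9.81 in menin-null PILECs and 9.13 and 8.92 in wild-type PILECs, against 4.32 and 4.24 in menin-null mESCs and 4.56 and 4.19 in wild-type mESCs. All 4 mESC arrays lay far below the expressed level and all 4 PILEC arrays above it. Scn2a rose by 5.38 ± 0.15 (SE) in menin-null cells, 41.6-fold, and by 4.65 ± 0.15 in wild-type cells, 25.2-fold (adjusted p = 5.62e-08 and 1.11e-07). Its 3 other probe sets were higher in PILECs too, by 0.56 to 3.75 in menin-null and 0.57 to 2.52 in wild-type cells. Scn3b, a beta subunit that modulates sodium channel gating, had signals of 11.55 and 12 in menin-null PILECs and 11.16 and 10.92 in wild-type PILECs, against 6.06 and 6.46 in menin-null mESCs and 6.43 and 6.34 in wild-type mESCs. It rose 45.7-fold in menin-null and 25.2-fold in wild-type cells (adjusted p = 9.97e-08 and 2.41e-07), and the genotypes did not overlap in PILECs. Scn3a is a pore of embryonic neurons that beta cells also use. By the probe set chosen it rose by 3.48 ± 0.13 in menin-null and by 4.17 ± 0.13 in wild-type cells. Its other probe set, with means of 4.75 to 4.86, differed by -0.01 and -0.06, so its rise rests on 1 probe set. Scn8a, the pore of axon initial segments and nodes, rose by 3.33 ± 0.22 in menin-null and 3.43 ± 0.22 in wild-type cells. In all, 5 of the 8 sodium channel pores rose and 2 fell in menin-null cells, and 4 rose and 0 fell in wild-type cells (limma, adjusted p). Of the 3 beta subunits 2 rose in menin-null and 1 in wild-type cells. Over all genes 28.9% rose and 36.1% fell in menin-null cells, and 27.8% rose and 35.3% fell in wild-type cells. Counts in classes this small are given as a description beside those shares.

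The calcium channels rose by pores and by auxiliary subunits. Cacng4, a gamma family protein that traffics AMPA-type glutamate receptors, had signals of 11.80 and 11.95 in menin-null PILECs and 11.99 and 11.71 in wild-type PILECs, against 7.63 and 7.19 in menin-null mESCs and 7.88 and 7.27 in wild-type mESCs. The genotypes overlapped within each cell type, and the cell types were far apart. It rose 22.1-fold in menin-null and 19.4-fold in wild-type cells (adjusted p = 6.00e-07 and 8.33e-07). The alpha2delta subunits bring calcium channels to the membrane, and 3 of the 4 rose in each genotype. Cacna2d3 had signals of 9.18 and 9.25 in menin-null PILECs and 9.37 and 9.14 in wild-type PILECs, against 5.28 and 5.22 in menin-null mESCs and 5.46 and 5.42 in wild-type mESCs, a rise of 3.97 ± 0.10 in menin-null and 3.82 ± 0.10 in wild-type cells. Cacna2d1 rose by 3.49 ± 0.14 and 3.43 ± 0.14, and Cacna2d2 by 1.88 ± 0.13 and 1.82 ± 0.13, in menin-null and in wild-type cells. The other probe sets of Cacna2d2, with means below 7, differed by -0.05 and 0.09 in menin-null and by 0.28 and -0.03 in wild-type cells. All 3 beta subunits measured rose in both genotypes by the probe sets chosen. By these, Cacnb1 rose by 1.77 ± 0.10 in menin-null and 1.52 ± 0.10 in wild-type cells. Its other probe sets disagreed, with differences of 1.87, -0.43 and -0.13 in menin-null and 1.53, -0.35 and 0.5 in wild-type cells. Cacnb4 rose by 1.11 in menin-null and 0.72 in wild-type cells. The other probe sets of Cacnb4 gave 3.47 and 1.39 in menin-null and 2.9 and 0.76 in wild-type cells.

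Among the 9 calcium channel pores, 5 rose and 1 fell in menin-null cells, and 5 rose and 2 fell in wild-type cells, where 28.9% and 27.8% of all genes rose in menin-null and in wild-type cells. Cacna1b, the pore of the N-type channel of nerve terminals, rose by 2.85 ± 0.14 in menin-null and 2.62 ± 0.14 in wild-type cells. Cacna1g, a low-voltage-activated T-type pore, rose by 2.85 ± 0.17 and 2.94 ± 0.17 in menin-null and wild-type cells. Cacna1h, another T-type pore, rose by 3.39 ± 0.13 in menin-null and 3.38 ± 0.13 in wild-type cells by the probe set chosen, but the other probe set, with means of 4.77 to 4.98, differed by -0.19 and -0.14, so its rise rests on 1 probe set. Cacna1e, the R-type pore, rose by 2.12 ± 0.12 in menin-null and 1.42 ± 0.12 in wild-type cells.

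The potassium channels moved in both directions. Of the 31 voltage-gated pores 11 rose and 4 fell in menin-null cells, and 12 rose and 4 fell in wild-type cells, where 28.9% of all genes rose and 36.1% fell in menin-null cells, and 27.8% rose and 35.3% fell in wild-type cells. Kcnd2 encodes a pore of the fast transient current of neuronal dendrites. Its signals were 8.83 and 9.52 in menin-null PILECs and 8.52 and 8.43 in wild-type PILECs, against 4.94 and 5.03 in menin-null mESCs and 5.03 and 5.06 in wild-type mESCs. All PILEC arrays were well above all mESC arrays, and the menin-null PILEC pair was spread more widely than the others. Kcnd2 rose 18.2-fold in menin-null and 10.8-fold in wild-type cells (adjusted p = 4.24e-07 and 1.34e-06). Its relative Kcnd3 rose by 3.76 ± 0.22 and 3.38 ± 0.22, and Kcnq3, a subunit of the neuronal M-current, by 2.95 ± 0.17 and 2.34 ± 0.17, in menin-null and in wild-type cells.

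Tandem-pore channels, which pass a background potassium leak, moved both ways. Kcnk2, a mechanosensitive member, had signals of 9.43 and 9.25 in menin-null PILECs and 9.18 and 9.20 in wild-type PILECs, against 6.01 and 5.98 in menin-null mESCs and 6.22 and 5.96 in wild-type mESCs. It rose by 3.35 ± 0.11 in menin-null and 3.10 ± 0.11 in wild-type cells. Kcnk5, an alkaline-activated member, moved the other way, with signals of 6.95 and 6.96 in menin-null PILECs and 7.05 and 6.96 in wild-type PILECs, against 9.81 and 10.02 in menin-null mESCs and 10.05 and 9.88 in wild-type mESCs. Its PILEC signals sat at the limit of expression in both genotypes. Kcnk5 was 7.81-fold lower in menin-null PILECs than in menin-null mESCs and 7.78-fold lower in wild-type PILECs than in wild-type mESCs (adjusted p = 1.20e-07 and 1.43e-07), and its other probe set fell by 2.87 and 2.81. Kcnk1, a weakly inward-rectifying member, had signals of 8.15 and 8.45 in menin-null PILECs and 8.08 and 7.85 in wild-type PILECs, against 9.93 and 10.07 in menin-null mESCs and 10.44 and 10.45 in wild-type mESCs. It fell by 1.70 ± 0.13 in menin-null and by 2.48 ± 0.13 in wild-type cells. Kcnk6, named after its values were seen, fell by 1.90 ± 0.13 in menin-null and 2.11 ± 0.13 in wild-type cells. In all, 3 of the 12 tandem-pore genes rose and 4 fell in menin-null cells, and 2 rose and 5 fell in wild-type cells, against 36.1% and 35.3% of all genes falling in menin-null and in wild-type cells.

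Of the 15 inward rectifiers 3 rose and 3 fell in menin-null cells, and 3 rose and 5 fell in wild-type cells, where more of all genes fell (35.3%) than rose (27.8%) as well. Among the 8 calcium- or sodium-activated channels 3 rose and 1 fell in each genotype, and among the 17 auxiliary genes 6 rose and 2 fell in each. The members whose 4 group means were most like those of Kcnk5 were Kcnj10, Kcnn4 and Kcnk6 (Pearson r = 0.998, 0.997 and 0.994 over 4 group means), and those most like Scn3b were Kcna4, Scn2a and Kcnj13 (each r = 1 to 3 digits). These correlations rest on 4 points that share their arrays and are a description.

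**Figure D2:**
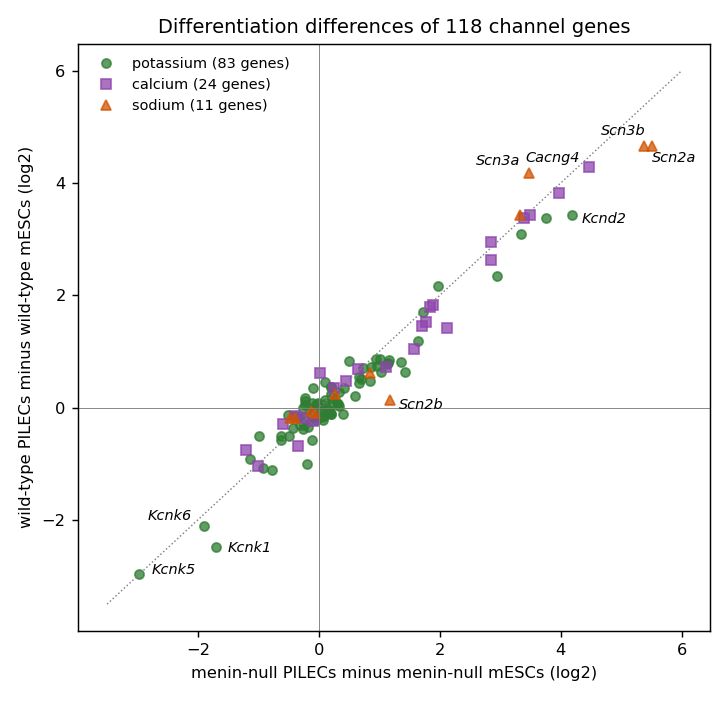
Difference between PILECs and mESCs of each of the 118 channel genes, in log2, with menin-null cells on the horizontal and wild-type cells on the vertical axis, 1 point per gene, shaped by ion. The dotted line marks equal differences. Scn2a (5.38 and 4.65) and Scn3b (5.51 and 4.65) lie farthest up, Kcnk5 (-2.97 and -2.96) farthest down, and Scn2b (1.18 and 0.13) below the line.

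Promoter sequences of 4 genes with large differences, 3 that rose and 1 that fell in both genotypes, are shown as sequence context. Each runs from 250 bases before to 50 bases after an annotated start in RefSeq (GRCm38.p6), in the direction of transcription, with matches to the GC box GGGCGG on either strand in capitals. RefSeq promoters were matched for 90 of the 118 genes, which had 125 promoters.
Scn2a, chr2:65620519-65620818, plus strand: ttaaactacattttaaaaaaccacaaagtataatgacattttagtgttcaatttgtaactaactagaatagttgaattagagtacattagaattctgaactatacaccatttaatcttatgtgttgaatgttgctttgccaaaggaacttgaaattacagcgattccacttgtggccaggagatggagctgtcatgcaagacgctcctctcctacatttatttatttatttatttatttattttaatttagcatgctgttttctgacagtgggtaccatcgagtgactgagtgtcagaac
Kcnd2, chr6:21215096-21215395, plus strand: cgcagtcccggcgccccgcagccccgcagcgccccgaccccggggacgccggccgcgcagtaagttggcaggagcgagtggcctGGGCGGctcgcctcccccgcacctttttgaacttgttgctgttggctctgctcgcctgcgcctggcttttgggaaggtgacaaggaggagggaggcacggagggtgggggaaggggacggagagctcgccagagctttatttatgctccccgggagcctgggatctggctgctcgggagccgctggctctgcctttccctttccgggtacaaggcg
Cacna2d3, chr14:29721815-29722114, minus strand: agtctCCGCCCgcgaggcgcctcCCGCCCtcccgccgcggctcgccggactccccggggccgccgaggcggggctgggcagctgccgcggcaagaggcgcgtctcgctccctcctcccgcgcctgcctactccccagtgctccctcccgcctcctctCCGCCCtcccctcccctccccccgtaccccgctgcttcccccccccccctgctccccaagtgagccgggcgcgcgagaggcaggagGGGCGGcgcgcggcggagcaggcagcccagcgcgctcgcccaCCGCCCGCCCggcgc
Kcnk5, chr14:20181733-20182032, minus strand: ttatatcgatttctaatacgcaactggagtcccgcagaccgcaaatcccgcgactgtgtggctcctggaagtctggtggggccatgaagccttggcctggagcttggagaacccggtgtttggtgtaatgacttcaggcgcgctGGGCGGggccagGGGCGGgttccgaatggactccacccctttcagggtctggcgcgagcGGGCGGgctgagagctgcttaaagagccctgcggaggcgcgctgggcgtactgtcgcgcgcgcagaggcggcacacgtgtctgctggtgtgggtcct
The Cacna2d3 window holds 6 matches to the GC box, Kcnk5 3, Kcnd2 1 and the Scn2a window shown none, and they hold 41, 26, 26 and 3 CpG dinucleotides in the same order. Scn2a has another annotated start in the table, not shown.

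The same letters were counted over all windows. GGGCGG was present in 45.6% of the 125 channel gene promoters and in 35.7% of the 32851 promoters in the table. It stood in 38.2% of the 55 promoters of genes that rose in both genotypes and in 68.8% of the 16 promoters of genes that fell in both. The TATA box letters TATAAA stood in 5.6% of the channel promoters and 13.6% of all, and CCAAT in 28.8% and 37.4%. Neuronal channel genes are known targets of the repressor REST, so the letters of its site were also counted. TTCAGCACC, the left part, matched 0 of the 125 channel promoters and 0.371% of all, and GGACAG, the right part, 24.8% and 22.2%. GGACAG stood in 20% of the 55 promoters of genes that rose in both genotypes and in 50% of the 16 promoters of genes that fell in both, which is 8 promoters. All motifs were searched on both strands and none of them contains another. A match is a description of the letters, and no match says only that they are not in this window.

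Rest itself fell with differentiation. Its signals were 8.84 and 8.64 in menin-null PILECs and 8.97 and 9 in wild-type PILECs, against 11.96 and 12.02 in menin-null mESCs and 12.06 and 12.02 in wild-type mESCs, so that the cell types were far apart and the genotypes close. It fell by 3.25 in menin-null and by 3.06 in wild-type cells (adjusted p = 5.24e-08 and 7.94e-08). Its part in the channel differences was not tested.

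The channel genes known from beta cells were followed as a list, of which 12 were analysed here. Kcnj11, the pore of the ATP-sensitive potassium channel, had signals of 8.26 and 8.15 in menin-null PILECs and 8 and 7.98 in wild-type PILECs, against 7.68 and 7.35 in menin-null mESCs and 7.31 and 7.65 in wild-type mESCs. PILECs and mESCs did not overlap, but the gap was small. Kcnj11 rose by 0.69 ± 0.15 in menin-null and by 0.51 ± 0.15 in wild-type cells (adjusted p = 0.00321 and 0.0153), and the wild-type call was lost without either wild-type PILEC array (0.0738 and 0.0632) or without wild-type mESC replicate 1 (0.111), while the menin-null call was lost in the mean of its probe sets (0.24, adjusted p = 0.0677). Abcc8, the sulphonylurea receptor that completes this channel, was below 7 in every group and differed by -0.19 in menin-null and -0.13 in wild-type cells (adjusted p = 0.542 and 0.686).

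Cacna1c, the L-type pore, had signals of 7.33 and 7.41 in menin-null PILECs and 7.10 and 6.94 in wild-type PILECs, against 5.92 and 5.41 in menin-null mESCs and 5.46 and 5.67 in wild-type mESCs. It rose by 1.71 ± 0.16 in menin-null and 1.46 ± 0.16 in wild-type cells. Cacna1d, the other L-type pore of beta cells, was below 7 in every group, and its probe sets disagreed, with differences of -0.39 and -0.15 by the chosen one and of 1.5 and 1.51 by the other in menin-null and wild-type cells. Cacna1a, the P/Q-type pore, fell by 0.59 ± 0.10 in menin-null and by 0.30 ± 0.10 in wild-type cells, and the wild-type call was lost without wild-type PILEC replicate 1 (0.0602) or 2 (0.143) or wild-type mESC replicate 2 (0.199). The other probe sets of Cacna1a differed by -1.75, -0.54 and -0.26 in menin-null and by -1.65, -0.6 and 0.04 in wild-type cells. Cacnb2, a beta subunit, rose by 0.65 ± 0.14 and 0.69 ± 0.14 in menin-null and wild-type cells, with means below 7. The other probe set of Cacnb2 differed by -0.13 and 0.09. Kcnma1, the large-conductance calcium-activated channel, rose by 0.96 ± 0.11 and 0.74 ± 0.11 in menin-null and wild-type cells.

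Cacna2d1 and Scn3a, also on the beta cell list, are given above. By their chosen probe sets they rose by 3.49 and 3.48 in menin-null and by 3.43 and 4.17 in wild-type cells. The other channels of the list follow. Kcnk16 and Kcnk3, tandem-pore channels of islets, were below 7 in every group and differed by 0.08 and 0.21 in menin-null and by -0.15 and 0.24 in wild-type cells, none of them past the threshold. Kcnh2, the pore of the rapid delayed rectifier of the heart, fell by 0.51 ± 0.13 in menin-null cells (adjusted p = 0.00786, and 0.0569 without menin-null PILEC replicate 1) and differed by -0.13 ± 0.13 in wild-type cells (adjusted p = 0.429). The difference between these values was -0.39 ± 0.18 (adjusted p = 0.305). Scn9a, a sodium channel pore, was below 7 in every group, and its call in menin-null cells, a fall of 0.39 ± 0.12, was lost without either menin-null PILEC array (0.0744 and 0.0701) and without menin-null mESC replicate 2 (0.106).

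In PILECs, the comparison of genotypes called few channel genes, all of them higher in menin-null cells. Of the 118 genes, 4 rose in menin-null relative to wild-type PILECs, where 2.26% of all genes rose, and 0 fell, where 4.42% of all genes fell (limma, adjusted p under 0.05). At an unadjusted p under 0.05 the counts were 21 higher and 2 lower. Counts at this cutoff, here and below, are given without the share of all genes and are a description. By the study's threshold 0 rose and 0 fell, where 0.286% of all genes rose and 0.544% fell. Of the 118 differences, 90 were above 0, with a median of 0.12, while 49.0% of all genes were above 0, with a median of -0.005. The share over all genes differed with signal level. Among the 12062 genes with a mean of at least 7 in any group, 38.9% were above 0, with a median of -0.063. Of the 56 channel genes at that level 46 were above 0, with a median of 0.2. After quantile normalization 86 were above 0, with a median of 0.10, and 9 rose and 1 fell, where 606 of all genes rose and 773 fell.

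**Figure D3:**
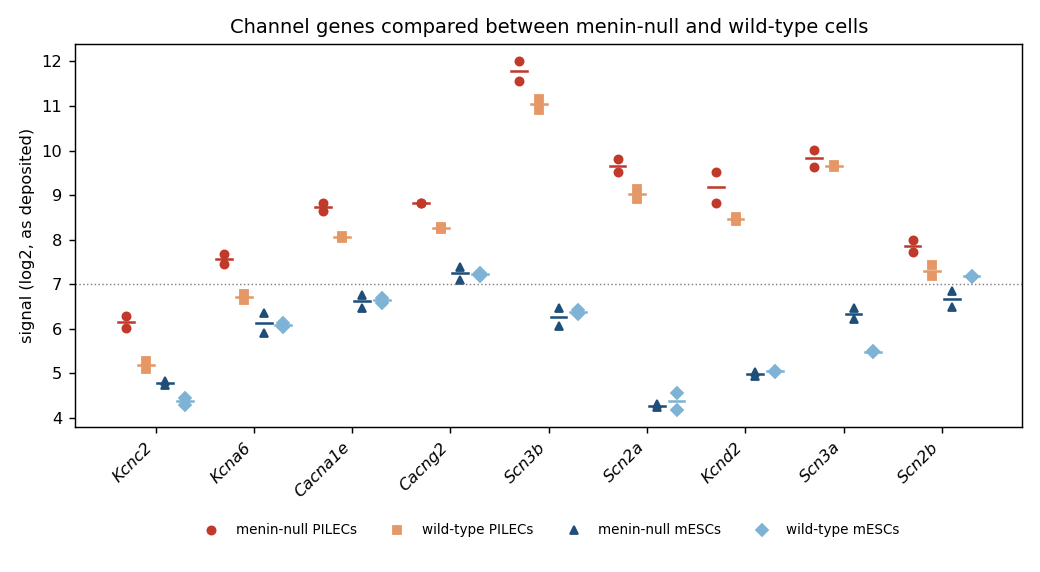
Log2 signal of 9 channel genes discussed for the comparison of genotypes, 1 point per array in 4 groups, with a short line at each group mean (n = 2) and a dotted line at the level of 7. Both menin-null PILEC points lie above both wild-type PILEC points for Kcnc2, Kcna6, Cacna1e, Cacng2, Scn3b, Scn2a, Kcnd2 and Scn2b, and both menin-null mESC points lie above both wild-type mESC points for Scn3a. The genes were picked by their differences, so this separation is a description.

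Kcna6, the pore of a delayed rectifier of axons, had signals of 7.45 and 7.67 in menin-null PILECs against 6.79 and 6.64 in wild-type PILECs, and of 6.35 and 5.91 in menin-null mESCs against 6.04 and 6.13 in wild-type mESCs. Only the menin-null PILEC arrays were above 7. It rose 1.79-fold in menin-null PILECs (0.84 ± 0.15, adjusted p = 0.0212), and its other probe sets differed by 0.65 and 0.07. Cacna1e had signals of 8.65 and 8.83 in menin-null PILECs against 8.08 and 8.04 in wild-type PILECs. It rose 1.60-fold (0.68 ± 0.12, adjusted p = 0.0209), and its other probe set, with means below 7, differed by 0.25. Cacng2, a gamma family protein also known as stargazin, which traffics AMPA receptors, had signals of 8.82 and 8.83 in menin-null PILECs against 8.28 and 8.24 in wild-type PILECs. It rose 1.48-fold (0.57 ± 0.11, adjusted p = 0.0237), and its other probe sets differed by 0.83 and 0.06. Kcnc2, a fast delayed rectifier, had the smallest p of the 4 but stayed below 7 in both genotypes and was named after its values were seen. Its signals were 6.02 and 6.29 in menin-null PILECs against 5.11 and 5.28 in wild-type PILECs (0.96 ± 0.12, adjusted p = 0.00576).

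These calls changed with the arrays in the fit. For fits with an array left out, here and elsewhere, counts over all genes are not given. The channel counts of these fits are therefore a description. Without menin-null PILEC replicate 1 or 2, 2 and 1 channel genes rose, and without wild-type PILEC replicate 1 or 2, 0 and 1 rose, while without either menin-null mESC array 8 rose and 1 fell. Kcnc2 was lost only without wild-type PILEC replicate 1 (adjusted p = 0.0609) among the arrays left out. Kcna6 and Cacna1e were lost without any 1 of the 4 PILEC arrays (adjusted p of 0.0613 to 0.156 and of 0.0581 to 0.144). Cacng2 was lost without any of these 4 (0.0854 to 0.155) and without either wild-type mESC array (0.0528 each).

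Differences of like size in 4 other channel genes missed the threshold. Scn3b differed by 0.74 ± 0.18 between menin-null and wild-type PILECs (adjusted p = 0.0577), Scn2a by 0.63 ± 0.15 (0.0512), Scn2b, a beta subunit, by 0.55 ± 0.15 (0.0694) and Kcnd2 by 0.70 ± 0.19 (0.0756). Scn3a and Scn8a, which rose with differentiation in both genotypes, differed between the genotypes in PILECs by 0.17 ± 0.13 and 0.22 ± 0.22 (adjusted p = 0.505 and 0.615). In each of the 4 genes near the threshold both menin-null PILEC arrays were above both wild-type PILEC arrays. That follows largely from picking genes by this difference, and adds no support. After quantile normalization all 4 passed, with adjusted p of 0.0274 to 0.0499. Scn3b and Scn2a also passed when only the PILEC arrays were fitted (0.0471 and 0.0385). By class, 26 of 31 voltage-gated potassium pores, 11 of 12 tandem-pore channels, 12 of 15 inward rectifiers and 8 of 9 calcium channel pores were above 0, with class medians of 0.19, 0.14, 0.12 and 0.18. Of the larger classes left, 11 of 17 potassium auxiliary genes, 5 of 8 calcium- or sodium-activated potassium channels, 5 of 8 calcium channel gamma genes and 5 of 8 sodium channel pores were above 0, with medians of 0.07, 0.07, 0.02 and 0.09. In the small classes 3 of 4 alpha2delta, 2 of 3 calcium channel beta and 2 of 3 sodium channel beta genes were above 0, and 49.0% of all genes were. That share was 38.9% among genes with a mean of at least 7 in any group. Only 11 of the 31 voltage-gated potassium pores, 5 of the 12 tandem-pore channels and 3 of the 15 inward rectifiers reached 7 in any group. For these mostly dim classes 49.0% is therefore not a share matched for signal level.

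**Figure D4:**
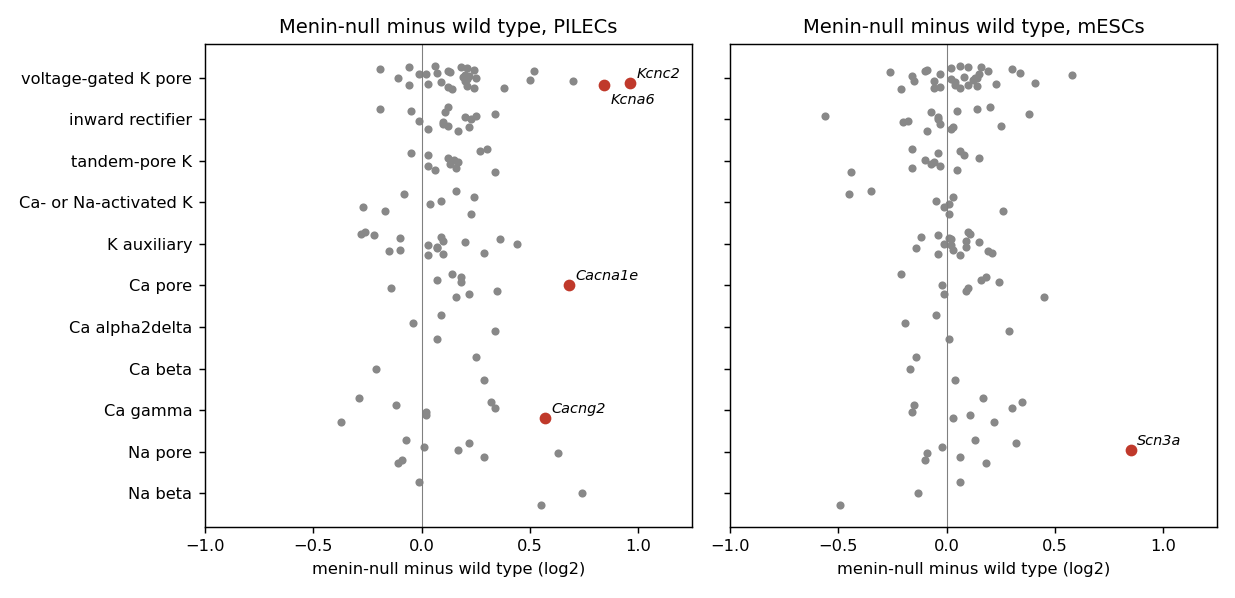
Menin-null minus wild-type difference in log2 of each of the 118 channel genes in PILECs and in mESCs, 1 point per gene in rows by class, with genes past an adjusted p of 0.05 in red. In PILECs 90 of 118 points lie above 0 and 4 are red, and in mESCs 69 lie above 0 and 1, Scn3a, is red.

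Markers of other cells also differed between the genotypes in PILECs. Of 8 glial markers measured 4 rose, with a list mean of 8.72 on both menin-null PILEC arrays and 8.14 to 8.20 on the wild-type PILEC arrays. Of 12 striated muscle markers 10 fell, with 7.54 to 7.87 in menin-null PILECs and 9.08 to 9.40 in wild-type PILECs, and of 8 pluripotency markers 5 fell, with 8.65 to 8.70 and 9.18 to 9.37 in menin-null and in wild-type PILECs. Of 7 markers of parietal and visceral endoderm 3 rose (Lama1, Sox17 and Foxa2) and 1, Ttr, fell, with a list mean of 8.89 to 8.96 in menin-null PILECs and 8.34 to 8.46 in wild-type PILECs. Of 6 fibroblast markers 2 fell, Col1a2 and Lum, with 11.13 to 11.56 in menin-null PILECs and 11.55 to 11.71 in wild-type PILECs. Of the 12 neuron markers 1 rose and 0 fell (4 with an unadjusted p under 0.05), with 11.84 to 12.03 in menin-null PILECs and 11.81 to 11.87 in wild-type PILECs. Of the 16 islet markers 0 rose and 0 fell (limma, 5 with an unadjusted p under 0.05). The part of these cells in the channel differences was not tested.

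**Figure D5:**
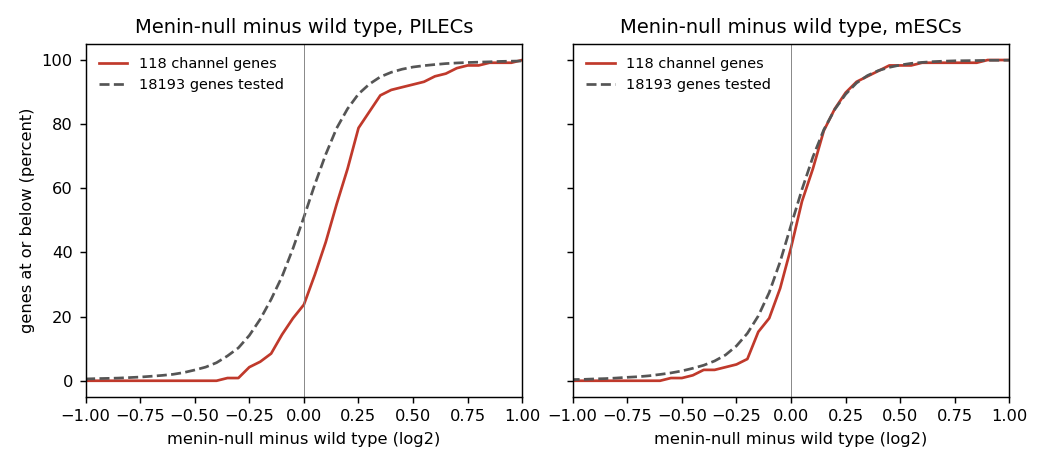
Cumulative share of genes, in percent, at or below each menin-null minus wild-type difference in log2, for the 118 channel genes (solid) and all 18193 genes tested (dashed), in PILECs and in mESCs. In PILECs the channel genes run to the right of all genes, with medians of 0.12 and -0.005, and in mESCs the medians are 0.03 and 0.007.

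In mESCs 1 channel gene passed the threshold between the genotypes, by its chosen probe set. Scn3a had signals of 6.22 and 6.46 in menin-null mESCs against 5.5 and 5.47 in wild-type mESCs, all below 7, and of 9.64 and 10.01 in menin-null PILECs against 9.67 and 9.64 in wild-type PILECs. The groups did not overlap in mESCs and did in PILECs. Scn3a rose 1.81-fold in menin-null mESCs (0.85 ± 0.13, adjusted p = 0.0187), and its other probe set differed by 0.04. The call was lost without wild-type mESC replicate 1 (0.124) or 2 (0.122), without either wild-type PILEC array (0.0556 each) and when only the mESC arrays were fitted (0.0902). By the study's threshold 0 channel genes rose and 0 fell in menin-null mESCs, where 0.055% of all genes rose and 0.368% fell. By the adjusted p 1 of 118 channel genes rose, where 1.29% of all genes rose, and 0 fell, where 2.36% of all genes fell (limma, with 9 higher and 4 lower at an unadjusted p under 0.05). Without menin-null mESC replicate 2, 5 rose and 2 fell, and without menin-null mESC replicate 1, 1 rose and 1 fell. Of the 118 differences 69 were above 0, with a median of 0.03 against 0.007 over all genes.

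Other channel genes came near the threshold in mESCs. Kcnh2 had signals of 9.11 and 9.10 in menin-null mESCs against 8.58 and 8.45 in wild-type mESCs (0.58 ± 0.13, adjusted p = 0.0543), and Cacna1a had 8.08 and 7.90 against 7.45 and 7.63 (0.45 ± 0.10, 0.0579). Kcnj3, a G-protein-gated inward rectifier named after its values were seen, had 6.65 and 6.78 in menin-null mESCs against 7.16 and 7.39 in wild-type mESCs (-0.56 ± 0.13, 0.0570). Its other probe sets, with means below 7, were also lower in menin-null mESCs, by -0.77, -0.84 and -0.46. In PILECs they differed by 0.06, 0.05 and 0.06. The other probe sets of Cacna1a differed by 0.38, 0.22 and 0.28 in mESCs. The arrays of the groups did not overlap for Kcnh2, Cacna1a and Kcnj3, which follows largely from picking genes near the threshold.

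The difference between the genotypes was itself compared between PILECs and mESCs, and 1 channel gene, Scn2b, passed by its chosen probe set. Its signals were 7.73 and 7.99 in menin-null PILECs against 7.43 and 7.18 in wild-type PILECs, and 6.50 and 6.85 in menin-null mESCs against 7.19 and 7.16 in wild-type mESCs. The menin-null arrays were the higher ones in PILECs and the lower ones in mESCs, with no overlap in either. That follows largely from picking the gene by this test, and adds no support. The genotype difference was 0.55 ± 0.15 in PILECs and -0.49 ± 0.15 in mESCs (adjusted p = 0.0694 and 0.126), and the difference between these was 1.05 ± 0.21 (adjusted p = 0.0436). Its other probe sets gave 0.03 and -0.18, and the mean of its probe sets gave 0.30 (adjusted p = 0.418). The call was lost with 7 of the 8 arrays left out in turn, remaining only without menin-null mESC replicate 2. Without menin-null mESC replicate 1, 4 channel genes were higher and 1 was lower in this test. Of the 118 genes 1 was higher and 0 lower in this test, where 1.5% and 1.57% of all genes were (limma, with 17 higher and 4 lower at an unadjusted p under 0.05). By the study's threshold 1 was higher and 0 lower, where 0.709% and 0.654% of all genes were. For Kcnc2, Kcna6, Cacna1e and Cacng2 the difference between PILECs and mESCs was 0.55, 0.80, 0.69 and 0.54 (adjusted p = 0.135, 0.0988, 0.0802 and 0.108), and for Scn3a it was -0.68 (0.107). Kcnj3, named after its values were seen, gave 0.81 by its chosen probe set and did not pass. Its other probe sets, with means below 7, gave 0.83, 0.9 and 0.53, all in the same direction, unlike those of Scn2b.

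Partners of these channels, and channels of related families, were counted from a list of 34, of which 31 were measured. With differentiation 18 rose and 5 fell in menin-null cells, where 28.9% of all genes rose and 36.1% fell. In wild-type cells 18 rose and 6 fell, where 27.8% of all genes rose and 35.3% fell. Ank2 and Ank3, the ankyrins that anchor channels in the axon, rose by 4.36 and 3.69 in menin-null and by 3.75 and 3.27 in wild-type cells. Fgf11, Fgf12 and Fgf13, which bind sodium channels inside the cell, rose by 2.85, 2.84 and 2.76 in menin-null and by 3.18, 2.34 and 2.16 in wild-type cells. In menin-null relative to wild-type PILECs 6 partners rose, where 2.26% of all genes rose, and 1 fell, where 4.42% of all genes fell. Those that rose were Dpp6, Dpp10, Unc80, Jph4, Ryr2 and Sptbn4, and Nalcn fell.

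Dpp6, an auxiliary subunit of the Kcnd channels, had signals of 8.54 and 8.82 in menin-null PILECs against 7.41 and 7.49 in wild-type PILECs, a rise of 1.23 ± 0.14 (adjusted p = 0.00456). Its relative Dpp10 had 8.24 and 8.48 in menin-null PILECs against 7.62 and 7.36 in wild-type PILECs, a rise of 0.87 ± 0.15 (adjusted p = 0.0182). Nalcn, the pore of the sodium leak channel, had 6.64 and 6.81 in menin-null PILECs against 7.63 and 7.70 in wild-type PILECs, and fell by 0.94 ± 0.09 (adjusted p = 0.00281), while Unc80, a subunit of the same channel, rose by 0.75 ± 0.15 (0.0306). The arrays of the genotypes did not overlap for Dpp6, Dpp10 and Nalcn, which follows largely from picking called genes. In mESCs 1 partner rose, Hcn2, a pacemaker channel (0.50, limma adjusted p = 0.0343), and 0 fell. Of all genes 1.29% rose and 2.36% fell in that comparison. Of the 31 partners 6 had an unadjusted p under 0.05 (limma).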

How the data were processed

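Total RNA from 2 independent cultures per group (2 menin-null PILEC, 2 wild-type PILEC, 2 menin-null mESC, 2 wild-type mESC) was hybridised to Affymetrix whole-genome mouse arrays, 1 per culture. The log2 values used are those the authors deposited, 1 per probe set and array (3.26 to 15.2). The submitters' notes name RMA and Partek and the study's methods name MAS 5.0, so which software made them is not settled. The genome build behind the array annotation is not given in the sources used here. Groups and replicate numbers came from sample titles.

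Of 45101 probe sets, 34945 named 1 gene symbol in the platform annotation and were used, and 64 controls, 9160 without and 932 with several symbols were left out. All 118 channel genes matched the GRCm38.p6 gene table by Entrez identifier, and 71 of them had several probe sets. A mean per group was fitted over the 8 arrays in limma 3.58.1 under R 4.3.3 (eBayes, 4 residual and 3.72 prior degrees of freedom), and p-values were adjusted over 18193 genes (Benjamini-Hochberg). "Rose" and "fell" mean an adjusted p under 0.05. The script was tested on simulated data. An exact permutation test of 2 against 2 arrays cannot go below 0.333. The number of arrays limits the precision.

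Genes were named by rule: up to 15 per contrast past the threshold with a mean of at least 7 and the largest difference, the 10 brightest, those past the test between cell types, and the beta cell list. The members, lists and rule were chosen with earlier results of these data known. Alternatives were quantile normalization, filters on dim or cross-matching probe sets, the mean of probe sets, fits of 2 groups only, a trended robust eBayes, a replicate block, the study's threshold and leaving out each array. Plots used matplotlib 3.10.9 and pandas 2.3.3, and version 1.17.8 of data.table was used.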

Additional observations from a re-analysis of the deposited data

Results flagged for a closer look

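Scn2b was singled out because its menin-null minus wild-type difference was not the same in the cell types by the test of that difference. The difference in PILECs minus that in mESCs was 1.05 ± 0.21 (SE, limma adjusted p = 0.0436), and it was positive in PILECs (0.55) and negative in mESCs (-0.49). Its call was lost in 7 of the 8 fits that left out an array (adjusted p of 0.0557 to 0.172) and in the mean of its probe sets, where the value was 0.30 (0.418). The members whose 4 group means were most like those of Scn2b were Kcnj1, Kcnh1 and Kcna2 (Pearson r = 0.986, 0.973 and 0.943, a description over 4 points).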

How the results depend on the processing

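For the 15 genes named for differentiation in each genotype, 14 kept their direction and call in each of 16 alternatives. The exception was Cacna1h, which without cross-matching probe sets differed by -0.19 in menin-null and -0.14 in wild-type cells, since only its other probe set was left. Cacna1d, uncalled by its chosen probe set, rose by 0.55 in menin-null and 0.68 in wild-type cells in the mean of its probe sets.

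Counts moved in the comparisons of genotypes and with differentiation. With quantile normalization 9 channel genes rose and 1 fell in menin-null PILECs, where 606 of all genes rose and 773 fell. The test between cell types gave 3 higher and 1 lower, where 352 and 337 of all genes were. For the other settings the counts over all genes are not given here. Among genes with a mean of at least 7, 3 rose and 1 fell in menin-null mESCs, 11 fell with differentiation in each genotype, and 4 were higher between cell types, with fewer genes tested. With the mean of probe sets 2 rose and 1 fell in menin-null mESCs. With a trended robust eBayes 8 rose in menin-null PILECs, 2 rose and 2 fell in menin-null mESCs, and 4 were higher between cell types. With only the arrays compared, 0 rose in menin-null mESCs. By the study's threshold 0 rose in menin-null PILECs and 0 in menin-null mESCs, 6 fell with differentiation in menin-null cells, and 23 rose and 6 fell in wild-type cells. The cause of these shifts was not tested.

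With 1 array left out, 0 to 8 rose and 0 to 1 fell in menin-null PILECs, 0 to 5 rose and 0 to 2 fell in menin-null mESCs, 44 to 50 rose and 16 to 23 fell in menin-null PILECs against menin-null mESCs, and 42 to 53 rose and 11 to 21 fell in wild-type PILECs against wild-type mESCs. The test between cell types gave 0 to 4 higher and 0 to 1 lower. In these fits the lone array is assumed to vary like the other groups. For wild-type cells the low counts of 11 fallen genes were without wild-type PILEC replicate 2 or wild-type mESC replicate 2, and 13 fell without wild-type PILEC replicate 1.

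The sample titles give same-numbered samples nothing in common but a number. Differences between the arrays of a group correlated between groups at -0.277 to 0.209. Whether same-numbered samples shared a batch cannot be told from these values. With the replicate number as a block, Scn2b lost its call (adjusted p = 0.0723), so that 0 genes passed between cell types, and 4 rose in menin-null PILECs, 1 in menin-null mESCs, 46 and 47 with differentiation in menin-null and wild-type cells. The number of arrays limits what could be called, and a gene below 7 is not shown to exceed background.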
